A study of Mus musculus with 7 samples.

Results

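The albumin gene family of the mouse lies on chromosome 5 and includes albumin (Alb), alpha-fetoprotein (Afp), afamin (Afm) and the vitamin D binding protein gene (Gc). Its members here were the nuclease hotspots, stretches where cleavage tags cluster above background, that overlapped the body of any of these 4 genes or the 20 kb on either side. They numbered 91 of the 190871 hotspots in 3 lists: 32 of 60910 for Benzonase, 28 of 57675 for Cyanase and 31 of 72286 for DNase I. All lists came from liver of male C57BL/6 mice aged 8 weeks. Benzonase and Cyanase were applied to pulverized frozen tissue at 0.25, 1 and 4 U/ml, with 1 sample at each concentration, whereas DNase I was applied to nuclei from freshly isolated tissue. The labels give 1 DNase I sample, while the header of its list names 2 pooled libraries. Because the tags of each nuclease were pooled before hotspots were called, no spread between samples could be measured. The values below are descriptions, and many but not all are set beside the same measure over the whole genome. Enzyme and tissue preparation cannot be told apart in any difference between DNase I and the other nucleases.

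Albumin is the main protein of adult plasma, and alpha-fetoprotein is its counterpart in the foetus. The genes arose by duplication and are read in hepatocytes. Afp is transcribed strongly in yolk sac and foetal liver and is shut down in hepatocytes after birth, with Zhx2 and Zbtb20 among its known repressors, while Alb remains among the most active genes of adult liver. Both are driven by promoters close to the start site that bind HNF1, C/EBP and FOXA factors, and by enhancers further upstream. Those of Afp were mapped with transgenes in the stretch between Alb and Afp. Afamin is a vitamin E binding glycoprotein of plasma, and the Gc product carries vitamin D metabolites.

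On mm9, Alb (ENSMUSG00000029368.9) runs on the plus strand from 90889915 to 90905629 and has 15 exons. Afp (ENSMUSG00000054932.3) follows on the same strand after 14110 bp, from 90919740 to 90937933, with 15 exons. Afm (ENSMUSG00000029369.10) starts 10024 bp further, from 90947958 to 90982569, also on the plus strand and with 15 exons. Gc (ENSMUSG00000035540.7) lies 1003 kb away on the minus strand, from 89846549 to 89886790, with 13 exons. Merging the overlapping windows left 2 stretches of 213 kb in all, of which the first holds Gc and the other holds Alb, Afp and Afm.

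The promoters are shown because they share motifs of liver factors although their hotspots differ. The lines below give the 250 bases directly before each annotated start site on NCBIM37 (mm9), from 5′ to 3′ along the gene. They are chr5:90889665-90889914 (plus strand) for Alb, chr5:90919490-90919739 (plus) for Afp, chr5:90947708-90947957 (plus) for Afm and chr5:89886791-89887040 (minus) for Gc. Capitals mark matches on either strand to any of 8 motifs.
Alb promoter: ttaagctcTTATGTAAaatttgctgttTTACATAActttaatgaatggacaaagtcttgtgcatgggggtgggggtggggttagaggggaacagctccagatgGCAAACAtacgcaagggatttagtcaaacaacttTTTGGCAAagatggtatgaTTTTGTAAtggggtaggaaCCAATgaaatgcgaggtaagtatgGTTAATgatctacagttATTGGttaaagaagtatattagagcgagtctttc
Afp promoter: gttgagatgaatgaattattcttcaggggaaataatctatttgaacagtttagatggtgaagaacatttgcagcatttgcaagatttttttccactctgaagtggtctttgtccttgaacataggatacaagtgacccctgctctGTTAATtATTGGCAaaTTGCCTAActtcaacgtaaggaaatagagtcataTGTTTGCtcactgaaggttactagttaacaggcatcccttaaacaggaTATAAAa
Afm promoter: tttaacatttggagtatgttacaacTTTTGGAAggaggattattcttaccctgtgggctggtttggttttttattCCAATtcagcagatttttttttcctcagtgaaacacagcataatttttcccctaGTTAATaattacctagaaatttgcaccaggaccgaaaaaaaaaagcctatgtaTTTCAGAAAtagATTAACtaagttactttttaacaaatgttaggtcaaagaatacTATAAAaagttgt
Gc promoter: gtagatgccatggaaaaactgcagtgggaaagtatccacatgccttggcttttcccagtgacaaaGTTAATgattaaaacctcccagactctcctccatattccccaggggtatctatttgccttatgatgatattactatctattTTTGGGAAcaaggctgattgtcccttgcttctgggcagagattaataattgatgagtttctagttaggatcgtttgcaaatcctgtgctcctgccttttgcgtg

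The motifs searched were GTTAAT (HNF1), TGTTTNC (FOXA), TTNNGNAA (C/EBP), CAAAGTNCA (HNF4), CAAGGTCA (NR5A2), TTGGCA (NF1), CCAAT and TATANA. The HNF1 pattern was found in 4 of the 4 promoters and in 5.43% of 45962 promoters of the same length. It began 51 bases before the start site in Alb (-51 to -46), at -105 to -100 in Afp, at -185 to -180 in Gc, and at -121 to -116 and -56 to -51 in Afm. TTNNGNAA was also present in 4 of 4, a letter pattern found in 33.1% of promoters, and TGTTTNC in 2 (Alb at -147 to -141 and Afp at -55 to -49), against 15.9% of promoters. TTGGCA was matched in the same 2 genes (11.1% of promoters), CCAAT in all but Gc (32.8%) and TATANA in Afp and Afm (18.8%). In some places these matches shared bases, as where TTGGCA lay inside the TTNNGNAA match of Alb at -113 to -106. In Afp the matches to CCAAT (-98 to -94) and TTGGCA (-97 to -92) overlapped. CAAAGTNCA (1.06%) and CAAGGTCA (1.12%) matched none of the 4 windows. The Afp match to TATANA sat only at -7 to -2, since positions are counted from the annotated 5′ end. The GC content of the promoters was low, at 38.8% for Alb, 36.0% for Afp, 30.8% for Afm and 42.4% for Gc, where the median promoter had 55.6%. The motif shares over all promoters were not matched for this difference. In these windows the Afp promoter thus held at least 1 match to every motif that was matched in that of Alb, and TATANA besides. It had fewer matches in all, 6 against 9 in Alb.

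From 4 upstream regions 300 bases are shown next, since the 3 upstream of Alb were called in every list and the region 5 kb upstream of Afp by DNase I alone. For Alb they were centred on the stretch common to the 3 lists, and for Afp on the DNase I hotspot. The windows are, on the plus strand of NCBIM37, chr5:90876669-90876968, chr5:90879037-90879336 and chr5:90886273-90886572 upstream of Alb, and chr5:90914662-90914961 upstream of Afp. Capitals again mark the motif matches.
Alb 13 kb upstream: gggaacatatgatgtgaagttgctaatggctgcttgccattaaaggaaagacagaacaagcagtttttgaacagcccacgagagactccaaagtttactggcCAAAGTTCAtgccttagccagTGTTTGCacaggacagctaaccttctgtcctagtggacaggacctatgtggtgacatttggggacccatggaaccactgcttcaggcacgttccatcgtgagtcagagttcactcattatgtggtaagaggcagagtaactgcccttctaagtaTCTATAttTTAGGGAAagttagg
Alb far upstream enhancer: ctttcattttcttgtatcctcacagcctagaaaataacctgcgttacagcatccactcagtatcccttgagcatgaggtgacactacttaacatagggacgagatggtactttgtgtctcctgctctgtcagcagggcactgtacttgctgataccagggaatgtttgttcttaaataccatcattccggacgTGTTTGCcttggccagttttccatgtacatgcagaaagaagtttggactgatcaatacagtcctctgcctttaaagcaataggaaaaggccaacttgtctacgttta
Alb 3 kb upstream: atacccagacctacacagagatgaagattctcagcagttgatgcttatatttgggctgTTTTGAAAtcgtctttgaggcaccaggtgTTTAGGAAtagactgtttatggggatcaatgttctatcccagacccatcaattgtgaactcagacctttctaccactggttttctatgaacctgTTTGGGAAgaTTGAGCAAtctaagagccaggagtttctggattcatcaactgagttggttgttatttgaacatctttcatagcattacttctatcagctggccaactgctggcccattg
Afp 5 kb upstream: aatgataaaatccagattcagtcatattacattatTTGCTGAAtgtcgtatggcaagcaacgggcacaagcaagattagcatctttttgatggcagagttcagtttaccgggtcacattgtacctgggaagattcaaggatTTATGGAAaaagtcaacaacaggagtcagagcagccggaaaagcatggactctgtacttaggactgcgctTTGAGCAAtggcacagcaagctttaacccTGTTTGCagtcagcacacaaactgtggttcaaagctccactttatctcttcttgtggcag

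TGTTTNC was found in 3 of the 4 upstream regions and in 27.1% of 94475 merged regions of the genome read over the same length. Those 3 were the Alb regions 13 kb and 10.7 kb upstream and the Afp region, each time with the letters TGTTTGC. TTNNGNAA matched in 3 (48.1% of regions), with 4 matches in the Alb region 3 kb upstream and 3 in the Afp region. The region 13 kb upstream of Alb also held CAAAGTTCA, a match to the HNF4 pattern present in 4.01% of regions, and a match to TATANA (21.7%). GTTAAT (9.47%), CAAGGTCA (3.36%), TTGGCA (23.4%) and CCAAT (35.6%) were not matched in these 4 windows. A match is a description of the letters and says nothing of binding.

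To compare the nucleases at matched places, hotspots that overlapped by at least 1 bp were merged, which gave 39 regions in the windows and 94491 in the genome. All 3 lists contributed to 20 of the 39 regions, or 51.3% (95% Wilson interval 36.2 to 66.1, counting error only), where the genome had 40.0%. DNase I alone gave 8 regions, or 20.5% (10.8 to 35.5), below the 28.3% of the genome but with an interval that includes it. Benzonase and Cyanase without DNase I gave 5, or 12.8% (5.60 to 26.7), near the 10.2% of the genome. Benzonase and DNase I shared 3 regions, or 7.69% (2.65 to 20.3), where the genome had 3.49%. Cyanase alone had 2 regions, or 5.13% (1.42 to 16.9, genome 6.80%), and Benzonase alone had 1, or 2.56% (0.454 to 13.2, genome 9.31%). Cyanase shared 0 regions with DNase I without Benzonase (interval 0 to 8.97, genome 1.98%). The genome share of each class lay inside its interval. These intervals treat neighbouring regions from 2 stretches as independent, so they are descriptions and not a test. The regions were not spread evenly along the genes, as the map of the Alb, Afp and Afm genes shows. All 5 regions of the Benzonase and Cyanase class lay in the Alb body, while the 8 of DNase I alone were divided between Gc (4), Afm (2), the Afp upstream stretch (1) and the neighbouring gene 5830473C10Rik (1).

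**Figure D1:**
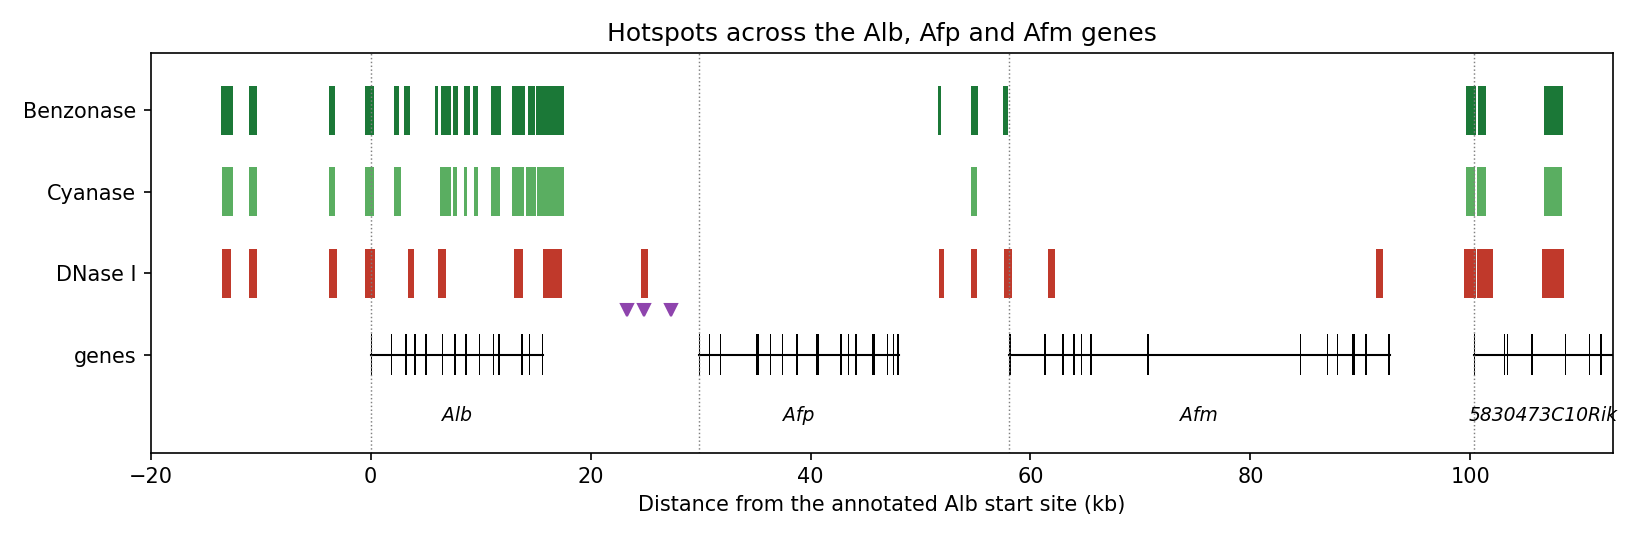
Hotspots of Benzonase (dark green), Cyanase (light green) and DNase I (red) along the Alb, Afp and Afm genes, against the distance from the annotated Alb start site in kb. Black ticks are exons, dotted lines start sites and purple triangles the positions 6.5, 5 and 2.5 kb upstream of Afp. Hotspots crowd over Alb, and the Afp body holds 0 of any list.

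At the promoters, the start site of Alb lay inside a hotspot of every list. The hotspot ran from 90889391 to 90890239 (849 bp) with Benzonase, from 90889378 to 90890187 (810 bp) with Cyanase and from 90889381 to 90890272 (892 bp) with DNase I. Their upstream edges fell within 13 bp of each other, at 524, 537 and 534 bp before the start, and their downstream edges lay at 324, 272 and 357 bp. The motif matches of the Alb promoter were therefore inside all 3 hotspots. In width they were above the median of their lists without being extreme, at the 69.8th, 69.6th and 81.7th percentile.

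The Gc start site was likewise covered in all lists, by hotspots of 1066 bp (Benzonase), 866 bp (Cyanase) and 953 bp (DNase I). Here, too, the upstream edges were close, at 502, 503 and 535 bp before the start, whereas the downstream edges at 563, 362 and 417 bp differed more.

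Afp had no hotspot at its start site in any list. The nearest Benzonase and Cyanase hotspots ended 12226 and 12202 bp upstream and were those over the 3′ end of Alb, and the nearest DNase I hotspot ended 4582 bp upstream. On the downstream side the first hotspots began 3612 bp (Benzonase), 6592 bp (Cyanase) and 3636 bp (DNase I) past the end of the gene.

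Afm was intermediate. A DNase I hotspot from 90947515 to 90948275 (761 bp) covered its start site, a Benzonase hotspot from 90947412 to 90947872 (461 bp) ended 86 bp before it, and the nearest Cyanase hotspot ended 2888 bp upstream. The Benzonase hotspot was narrow for its list, at the 22.5th percentile of width, and it reached further upstream than that of DNase I. The lack of a call for Cyanase is not evidence of closed chromatin, since tag densities were not analysed here.

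Counted over the 4 genes, the start site was inside a hotspot for 2 with Benzonase, 2 with Cyanase and 3 with DNase I. Of 22365 protein-coding genes, 57.4%, 55.7% and 47.4% had at least 1 such start site in the respective lists. Afp was among the 40.9% of genes without a covered start site in any list. Being empty at the start site was thus common among genes, and the contrast lay with the neighbours of Afp. Hotspots at the 4 start sites covered Alb and Gc in each list and Afm with DNase I, and none covered Afp.

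**Figure D2:**
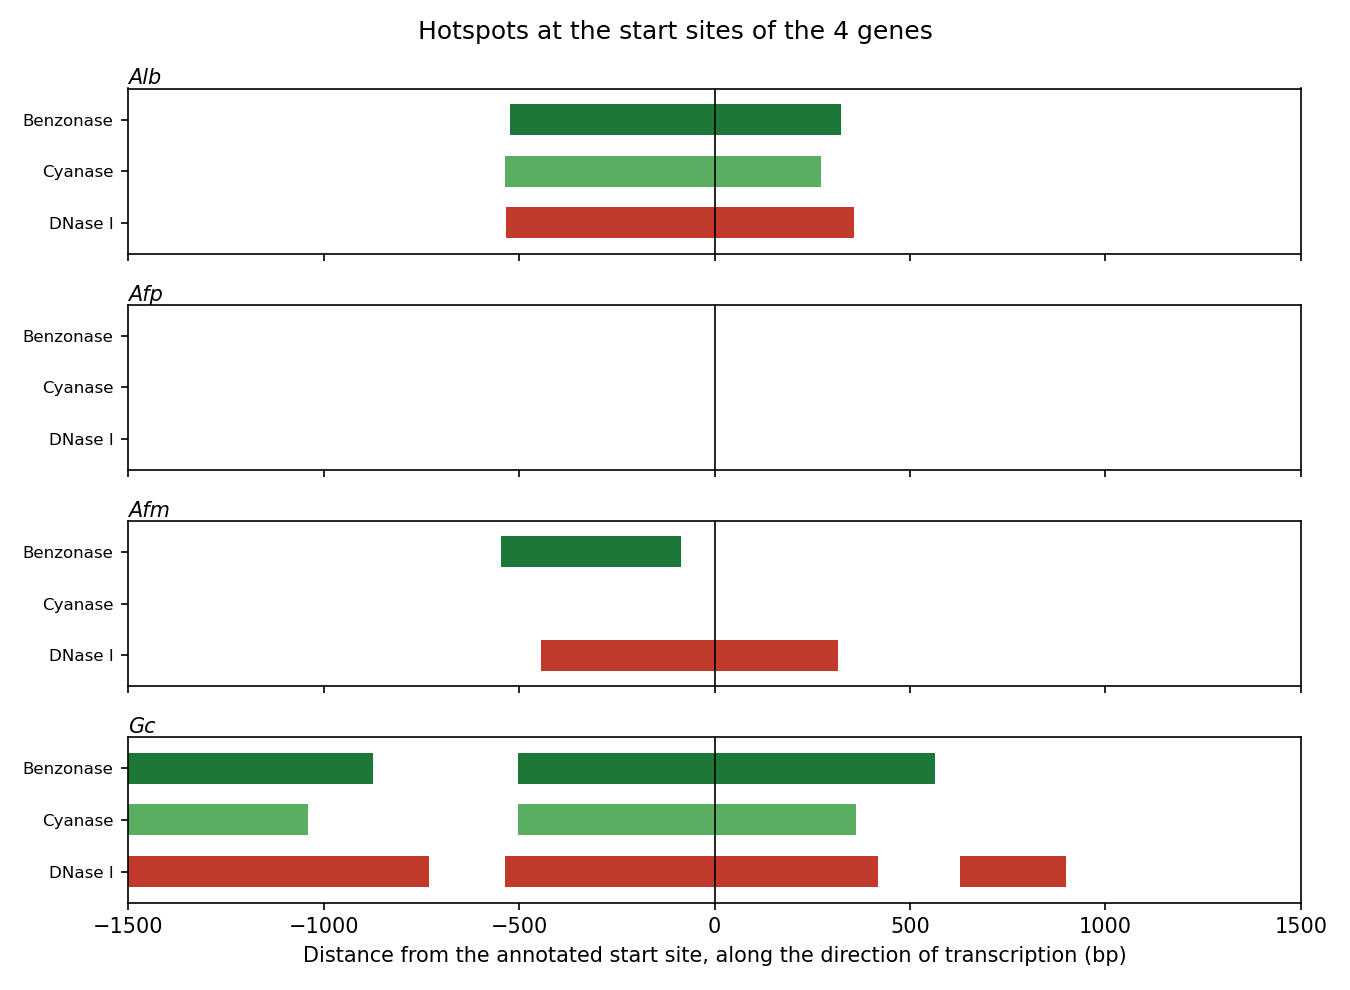
Hotspots around the annotated start sites of Alb, Afp, Afm and Gc, with the distance along the direction of transcription in bp and 1 row for each nuclease. Alb and Gc are covered in all 3 rows, Afm by DNase I with a Benzonase hotspot ending 86 bp before the start, and the Afp panel is empty.

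Upstream of Alb the lists agreed closely. The far upstream enhancer was sought between 8 and 11 kb before the start site and was met by hotspots of 720 bp (Benzonase), 712 bp (Cyanase) and 766 bp (DNase I), centred 10.7 kb upstream. Their start positions, 90878836, 90878826 and 90878828, lay within 10 bp, and their ends at 90879555, 90879537 and 90879593 within 56 bp. Each of these hotspots began before the 11 kb bound and ended inside the range. The rest of the range, nearer the start site, held no hotspot of any list. Whether these hotspots are the enhancer itself was not tested. Another region 13.1 kb upstream was 1016, 961 and 792 bp wide, and the last of them, 3.46 kb upstream, was 534, 514 and 725 bp wide. DNase I thus gave the narrowest of the hotspots 13.1 kb upstream and the widest of those 3.46 kb upstream. Within the 20 kb upstream of Alb each list had 4 hotspots, the promoter included, and covered 14.0% (Benzonase), 13.6% (Cyanase) and 14.1% (DNase I) of the bases.

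The upstream enhancers of Afp were sought at 2.5, 5 and 6.5 kb before its start site, with 500 bp on either side. Each of these ranges was narrower than that searched for Alb, and no genome rate was measured for either width. Calls at the enhancers of Alb and Afp are therefore not compared with each other. At 2.5 and 6.5 kb none of the lists had a hotspot. At 5 kb DNase I had a hotspot of 693 bp from 90914466 to 90915158, at the 59.0th percentile of width in its list, and Benzonase and Cyanase had none, their nearest hotspots ending 6726 and 6702 bp away. This DNase I hotspot, whose centre is printed above, was the only call of any list between the end of the hotspots over the 3′ end of Alb and the end of Afp. It had a GC content of 42.7%, at the 29.9th percentile of DNase I hotspots.

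The stretch free of hotspots around the Afp start site measured 34030 bp for Benzonase, 36986 bp for Cyanase and 26410 bp for DNase I. Median distances between neighbouring hotspots in the genome were 11.6, 11.9 and 8.75 kb, and the Afp gap stood at the 71.9th, 72.8th and 72.9th percentile. A gap of this size was therefore not rare. In the Afp body 98.5% of all 32-base words occurred once in the genome, against 89.3% between Alb and Afp and 90.8% between Afp and Afm. The gap held 0 unknown bases. Afp was among the 29.6% of genes without a hotspot of any list in the body, a share that was 19.2% among the 6154 genes with a body of 10 to 30 kb, the range of Afp and Alb. Its window with the flanks takes in the 3′ part of Alb and was not poor in hotspots. Coverage there was 11.5% (Benzonase), 10.2% (Cyanase) and 9.48% (DNase I), at the 91.4th, 90.2nd and 89.1st percentile of genes.

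The body of Alb differed most between the nucleases. Benzonase hotspots covered 48.3% of its 15715 bp (12 hotspots), Cyanase hotspots 40.9% (10 hotspots) and DNase I hotspots 16.0% (5 hotspots). The median gene had 2.24%, 1.91% and 1.57%, and Alb stood at the 97.5th, 97.2nd and 92.3rd percentile. Coverage was thus high among genes in every list, and lower with DNase I than with the other enzymes. Of 8 regions centred in the body, Benzonase contributed to 8, Cyanase to 7 and DNase I to 3.

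Exons were covered more than introns. In Benzonase 74.5% of exon bases and 44.4% of intron bases lay in hotspots, in Cyanase 63.6% and 37.5%, and in DNase I 20.6% and 15.3%. Hotspots touched 10 (Benzonase), 9 (Cyanase) and 4 (DNase I) of the 15 exons. The hotspots over the Alb body show this as a series of Benzonase and Cyanase calls, in matching places from exon 7 onward, with gaps where DNase I had none.

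The 5 regions shared by Benzonase and Cyanase without DNase I lay in intron 3 (90892019 to 90892650), over exon 8 (90897364 to 90897896), over exon 9 (90898361 to 90898938), in intron 9 (90899230 to 90899678) and over exons 11 and 12 (90900825 to 90901766). In order, the Benzonase hotspots were 492, 524, 578, 449 and 935 bp wide and those of Cyanase 632, 434, 268, 328 and 875 bp. Most were narrow for their lists, and without hotspots under the lower width quartile (482 bp for Benzonase and 489 bp for Cyanase) only 2 of the 5 regions kept both enzymes. Their GC content ranged from 41.5% to 44.8%, above the 39.0% of the Alb body. The regions centred in the body that DNase I also called had 41.3% (exon 4), 38.7% (exon 7) and 43.7% (exon 13). Whether the base composition played a part was not tested.

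DNase I had 3 hotspots inside the body apart from those at its ends. In intron 4 its hotspot (539 bp, 90893321 to 90893859) overlapped the downstream side of a Benzonase hotspot over exon 4 (585 bp, 90892935 to 90893519), with no Cyanase call. Over exon 7 it had 806 bp, where Benzonase had 256 and 918 bp in 2 hotspots and Cyanase 992 bp. Over exon 13 it had 783 bp from 90902952 to 90903734, inside the hotspots of Benzonase (1170 bp) and Cyanase (1091 bp), which started at the same base, 90902766.

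Wide hotspots covered the 3′ end of Alb, the widest of the members for Benzonase and Cyanase, while the widest for DNase I was the 1969 bp hotspot in 5830473C10Rik. Those at Alb measured 2551 bp with Benzonase (90904964 to 90907514), 2530 bp with Cyanase (90905009 to 90907538) and 1698 bp with DNase I (90905597 to 90907294), at the 99.0th, 99.2nd and 98.3rd percentile of their lists. The first of these took in exon 15 and ran 1885 bp past the end of the transcript, against 1909 bp for Cyanase and 1665 bp for DNase I. On the side of the gene, Benzonase and Cyanase reached 665 and 620 bp inside it, and DNase I only 32 bp. A covered transcript end was seen for Alb alone of the 4 genes, in each list. Among all protein-coding genes 4.98% (Benzonase), 4.45% (Cyanase) and 4.72% (DNase I) had one.

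**Figure D3:**
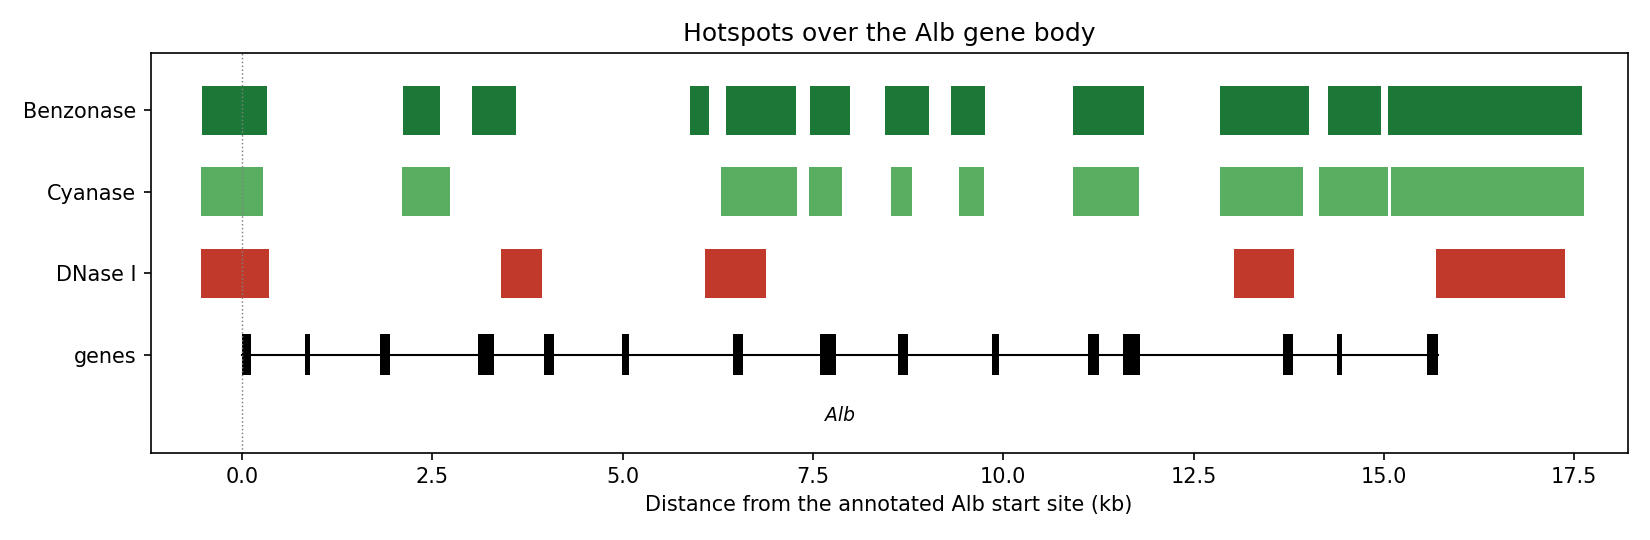
Hotspots of the 3 nucleases over the Alb gene, with the distance from the start site in kb and exons as black boxes. Benzonase and Cyanase hotspots follow each other across the body (48.3% and 40.9% of bases), DNase I hotspots are fewer (16.0%), and all 3 lists have their widest hotspot of this gene over the 3′ end.

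Between Afp and Afm the lists had 3 (Benzonase), 1 (Cyanase) and 3 (DNase I) hotspots. A region 3.17 kb upstream of Afm was shared by all, at 625, 546 and 548 bp. Another 6.18 kb upstream held a Benzonase hotspot of 272 bp, at the 4.80th percentile of width in its list, and a DNase I hotspot of 449 bp. Inside Afm only DNase I had calls, a hotspot of 582 bp in intron 3 and another of 626 bp over exon 14, which with the promoter covered 4.41% of the body. In the Afm body 66.5% of 32-base words occurred once in the genome, fewer than in the bodies of Alb (94.0%), Afp (98.5%) and Gc (78.7%), and the part of this in the missing calls was not tested.

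Downstream of Afm the window reached into 5830473C10Rik, which RefSeq lists with the synonym Albfm1 and which starts at 90990244 on the plus strand. Its start site was covered in all lists, by 881 bp (Benzonase), 900 bp (Cyanase) and 1071 bp (DNase I). A neighbouring region in intron 1 was shared as well. In intron 4 a wide region held hotspots of 1724, 1656 and 1969 bp, at the 94.7th, 95.1st and 99.2nd percentile of width. The 20 kb after Afm thus had a coverage of 17.0% (Benzonase), 16.9% (Cyanase) and 22.5% (DNase I), above that of the Afm body in each list.

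Gc had 11 Benzonase, 11 Cyanase and 13 DNase I hotspots in its window, in 16 regions of which 9 were common to the lists. The median protein-coding gene had 3 in each list, and Gc stood at the 95.2nd, 95.8th and 95.8th percentile. The Gc hotspots were concentrated at the 5′ side of the gene. Intron 1 held 4 regions common to all lists, centred 1.97, 6.67, 8.28 and 9.82 kb past the start site. Upstream, a region centred 1.57 kb before the start held the widest hotspots of this gene, at 1439 bp (Benzonase), 1277 bp (Cyanase) and 1681 bp (DNase I), and 3 further common regions lay 4.23, 9.48 and 10.3 kb upstream. The 9 common regions across Gc lay in this stretch, which also held 4 regions called by a single list.

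The regions of Gc called by fewer lists were mostly narrow or remote from the promoter. DNase I alone had hotspots in intron 11 (774 bp), over exon 8 (572 bp) and 2 in intron 1 (579 and 271 bp). Cyanase alone had 448 bp in intron 6 and 338 bp in intron 1, and Benzonase alone 366 bp at 8.73 kb upstream. Hotspots covered 9.80% (Benzonase), 11.6% (Cyanase) and 14.3% (DNase I) of the body, the reverse of the order in Alb. The 20 kb past the 3′ end of Gc held 0 hotspots of any list, and 70.2% of its 32-base words occurred once in the genome.

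**Figure D4:**
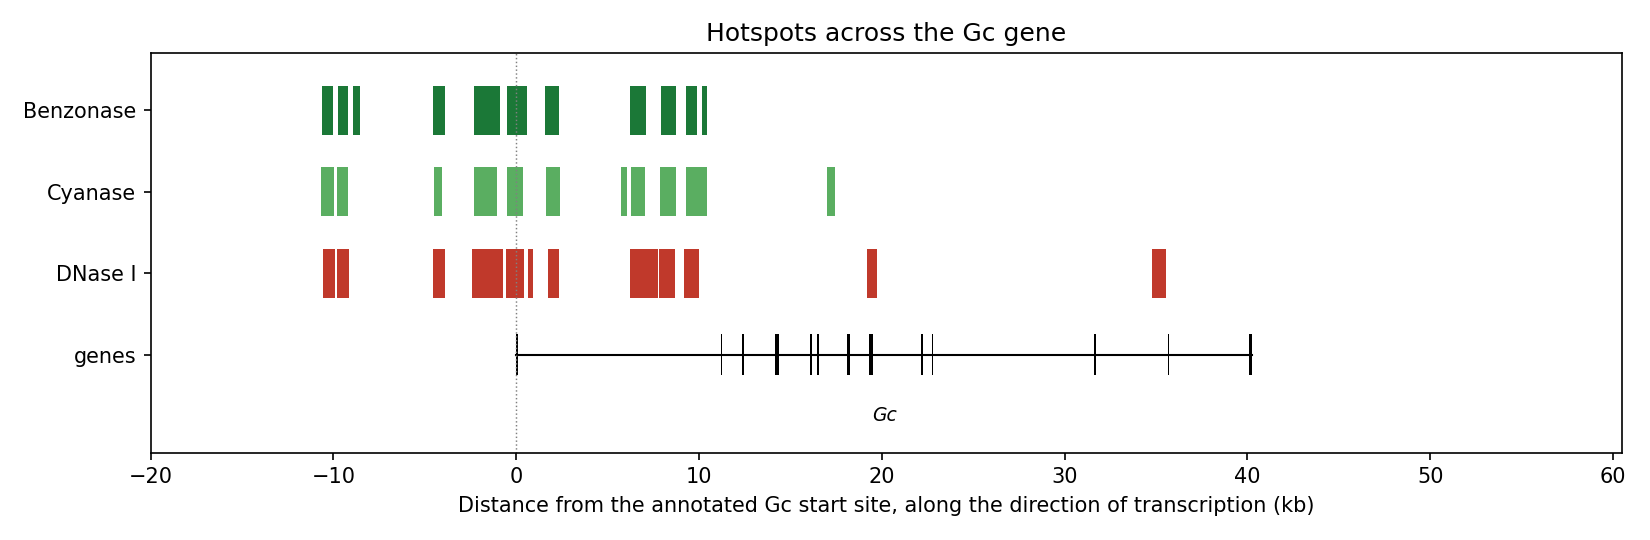
Hotspots of the 3 nucleases across Gc, with the distance from the start site in kb along the direction of transcription and exons as black ticks. Shared hotspots lie between 10.3 kb upstream and 9.82 kb into the gene, the rest of the body holds scattered calls of Cyanase or DNase I, and the 3′ flank is empty.

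The order of the nucleases was not the same along the genes. Of the 10 stretches plotted, the Alb body was the one in which the Benzonase and Cyanase shares both exceeded the DNase I share. In the Afp body and the 3′ flank of Gc all shares were 0. In the remaining stretches the DNase I share was at or above that of Benzonase, as the plot of bases inside hotspots shows. Over both windows together, 11.8% of bases were covered by Benzonase hotspots, 10.9% by Cyanase hotspots and 11.8% by DNase I hotspots. The window of the median protein-coding gene, with the same flanks, had 3.22%, 2.90% and 2.98%.

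**Figure D5:**
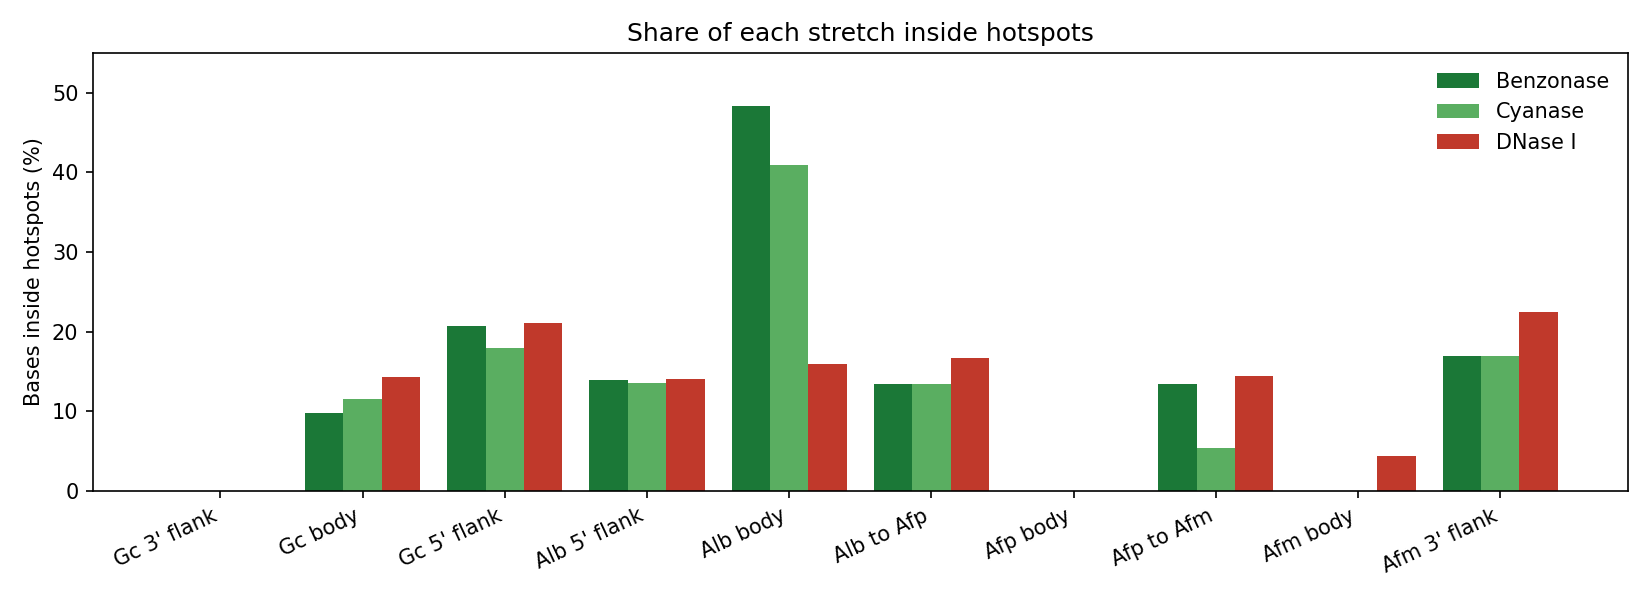
Percent of bases inside hotspots for each gene body, flank and intergenic stretch, with 1 bar for each pooled list and therefore no error bars. The Alb body stands out with Benzonase (48.3%) and Cyanase (40.9%) against DNase I (16.0%), and the Afp body and the Gc 3′ flank are at 0.

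Where all 3 lists called the same place, their bounds were close. In the 17 member regions with exactly 1 hotspot of each list, the start positions of Benzonase and Cyanase differed by a median of 28 bp and the ends by 34 bp (both 33 bp over 33922 such regions of the genome). Benzonase and DNase I differed by 78 bp at the start and 51 bp at the end (72 and 71 bp in the genome). The bases common to both hotspots made up a median of 91.0% of their union for Benzonase and Cyanase, and 85.6% for Benzonase and DNase I, where the genome had 90.6% and 79.7%. DNase I was the wider of the pair in 12 of 17 regions against Benzonase and in 12 of 17 against Cyanase, where the genome had 46.9% and 53.5%. Left out were common regions with more than 1 hotspot in a list, over exon 7 and the 3′ end of Alb and in intron 1 of Gc. There the DNase I hotspots (806, 1698 and 799 bp) were narrower than the widest of Cyanase (992, 2530 and 1139 bp). The widest Benzonase hotspots had 918, 2551 and 630 bp.

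Member hotspots had median widths of 662 bp (Benzonase), 803 bp (Cyanase) and 761 bp (DNase I), while the lists had 652, 641 and 649 bp. They overlapped a hotspot of another list in 31 of 32 cases for Benzonase (96.9%, Wilson interval 84.3 to 99.4, list 85.6%), 26 of 28 for Cyanase (92.9%, 77.4 to 98.0, list 88.9%) and 23 of 31 for DNase I (74.2%, 56.8 to 86.3, list 63.0%). Their median GC content was 42.3%, 42.1% and 40.7%, against 51.3%, 51.4% and 46.2% in the lists. The members were thus AT-rich for their lists, and the promoters printed above were AT-rich among promoters. The stretches in which the members lie were low in GC as well, from 39.0% in the Alb body to 42.6% in the 20 kb after Afm.

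The start sites of other genes of the same biology were scored in the same way. Of 17 known regulators of Alb and Afp, 17 had a start site in a Benzonase hotspot, 17 in a Cyanase hotspot and 16 in a DNase I hotspot, against the 57.4%, 55.7% and 47.4% of all genes given above. The exception was Nfix, of the NF1 family. Zhx2 and Zbtb20, the repressors of Afp, were covered in all lists, Zhx2 by hotspots of 3582, 3498 and 1292 bp. Among 7 foetal liver genes turned down after birth, 3 were covered with Benzonase, 3 with Cyanase and 1 with DNase I. Igf2, a foetal growth factor, was covered in each list, while Gpc3, a heparan sulphate proteoglycan, and Lin28b, which blocks let-7 maturation, were covered with Benzonase and Cyanase. Afp, H19, Dlk1 and Igf2bp3 were not covered in any list. Of 21 adult plasma protein genes, 20, 20 and 21 were covered, and the gene missed by Benzonase and Cyanase was Afm. Afp itself belongs to the foetal list, in which 4 of 7 genes were uncovered in every list, against 40.9% of all genes. Alb, Gc and Afm likewise belong to the plasma protein list, so these counts include the member genes.

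Markers of the cells in the tissue bear on these lists, since hotspots were called on whole liver or its nuclei. Hepatocyte markers, which include Alb, were covered in 8 of 8 genes in each list, and 8 genes not used in liver were covered in 0. Of all protein-coding genes, 57.4% (Benzonase), 55.7% (Cyanase) and 47.4% (DNase I) were covered. Kupffer cell markers were covered in 1 (Benzonase), 1 (Cyanase) and 5 (DNase I) of 5, stellate cell markers in 3, 4 and 0 of 4, sinusoidal endothelium markers in 1, 1 and 0 of 4 and bile duct markers in 2, 1 and 1 of 4. The Kupffer cell gene covered was Adgre1 with Benzonase and Clec4f with Cyanase. The lists thus differed most at the Kupffer and stellate cell markers, in sets of only 5 and 4 genes. The part of this in the differences at the albumin genes was not tested.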

How the data were processed

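Hotspots were read from 1 list per nuclease, deposited as 3 columns (chromosome, start, end) on mm9. Per the paper's methods, the authors aligned tags by Eland or Bowtie. By the headers, tags of the 3 concentrations of Benzonase or Cyanase were combined, and for DNase I those of 2 libraries. Hotspots were the tag clusters that passed a false discovery rate of 0% (input adjusted, by the header). The methods also name a cut-off on how dense the tags were, placed at the modal value. Whether the deposited lists had this cut-off is not known. For each nuclease the paper reports fewer hotspots than its deposited list holds, and fewer in total than the 94491 merged regions. The counts and genome shares given here are therefore those of the deposited lists and not the published ones. The deposited lists used here hold positions only, with no count, score or tag density, so the depth behind a hotspot is not known from them and a missing call does not measure a low signal. Tag densities, single concentrations and expression were not analysed here. There were 0 columns of other samples.

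Genes and start sites of protein-coding transcripts were taken from GENCODE M1 on NCBIM37, the same build as mm9, and sequences from its genome. Coordinates count from 1. The members and gene lists were chosen with earlier results of these data known, and the genes named are Alb, Afp, Afm, Gc, any annotated gene in their windows that overlaps a member hotspot, and those lists. Hotspots overlapping by 1 bp were merged into regions, and a start site was scored as covered when it lay inside a hotspot, as in the study. With 1 pooled list per nuclease no test between nucleases was possible. Wilson intervals at 95% cover counting error only and treat neighbouring hotspots or regions as independent. Percentiles compare a width, gap or coverage with all hotspots, gaps or protein-coding genes. In the Cyanase list 2 hotspots ran past a chromosome end and were shortened for GC content. Alternatives were windows of 10 and 50 kb, joining within 150 bp or at 50% overlap of both hotspots, removal of hotspots below the lower quartile of width in each list, a hotspot within 1 kb of the start site, start sites of all transcripts, and enhancer windows of 250 and 1000 bp either side. Interval tools were tested on simulated lists. Python 3.11.15, numpy 2.4.6, scipy 1.17.1, numba 0.67.0, matplotlib 3.10.9 and samtools 1.23.1 were used.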

Additional observations from a re-analysis of the deposited data

How the results depend on the processing

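Of 48 alternative settings over 20 counts and shares, 46 moved the value by at most 1.5 times. Without hotspots under the lower width quartile the regions of Benzonase and Cyanase without DNase I fell from 5 to 2, all of them in the Alb body, since narrow hotspots of this class were removed. Joining hotspots within 150 bp took the regions of DNase I alone from 8 to 5, by merging some with their neighbours. With a hotspot within 1 kb of the start site counted, Benzonase covered 3 of the 4 genes in place of 2, the addition being Afm. Afp had 0 in each list under the alternatives for its start site, and the counts at its enhancers were the same with 250 and 1000 bp either side. Removing narrow hotspots or narrowing a window could not add a call to a count of 0, and such settings are among the 46. The hotspot nearest to the Afp start site ended 4582 bp away, so the 1 kb setting could not reach it. No alternative was set for the range in which the far upstream enhancer of Alb was sought. No paired analysis was possible because each nuclease has 1 pooled list and the labels carry no replicate numbers. Depth limits each missing call, because the tags behind it are unknown.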
